A study of Mus musculus with 6 samples.

Results

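The T cell and NK cell genes followed here were Cd3d, Cd3e, Cd3g, Trbc1, Trbc2, Cd8a, Klrb1c, Ncr1, Nkg7 and Gzma, which are 10 of the 57010 genes in the count table. They were picked by gene name, with no rule on measured values, although earlier results of these data were known when the list was made. They were read in a preparation of another cell type, namely monocytes taken from the bone marrow of C57BL/6 mice (C57BL/6J in the methods) at 1 year of age, for which no treatment or allele is given, with 3 femur-derived libraries (S13, S15, S18) and 3 mandibular-derived libraries (S16, S19, S23). The study asked how osteoclast precursors differ between these skeletal sites. The cells came from flushed marrow by negative selection, in which labeled antibodies retain the other marrow cells on a magnetic column and the unlabeled fraction is kept, and the methods speak of male and female mice without giving the sex, animal or batch of a library. All 6 libraries carried the monocyte markers, since the summed level of 10 of them (Lyz2, Ly6c2, Ccr2, Csf1r and others) was 7980 to 14746 counts per 1000000 (CPM, scaled by the trimmed mean of M values, TMM) in femur and 6816 to 12194 CPM in the mandible. Lyz2 made up the greater part of this sum, at 4630 to 10579 CPM in femur and 4620 to 7816 CPM in mandible libraries. Csf1r was at 157 to 306 CPM and 275 to 450 CPM. The sum of 10 neutrophil markers was above the monocyte sum in S13 (33191 against 10114 CPM) and S18 (23655 against 14746 CPM), and below it in the others.

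T cells recognize antigen with a receptor whose alpha and beta chains bind the ligand, while the attached CD3 chains pass the signal into the cell. CD8 is the coreceptor that lets cytotoxic T cells read antigen on class I molecules. NK cells do not rearrange a receptor and instead sum the input of activating and inhibitory receptors coded in the germline. Both cell types kill by releasing granules that hold perforin and granzymes, and both circulate through the marrow. Memory T cells are also known to reside in the marrow.

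The libraries held 15718782 to 25371474 counts. Femur S15 stood apart, with at least 1 count on 40494 genes against 17481 to 23513 genes in the other 5 libraries. A total of 841 of 1413 olfactory receptor genes, a set chosen after the data were seen because blood cells are not known to use them, had a count in S15, against 6 to 55 in the others. The source of these low counts was not tested, and they bear on each S15 value and femur mean given here. All 10 T and NK genes lay above the mean level of these olfactory genes in every library, and the smallest margin was 12.7-fold, for Klrb1c in S15, on CPM per 1000 bases of exon. Mandible S23 was the sole library with a high level of Xist, at 1441 CPM against 0 to 0.553 CPM in the others. It was also the sole one without a count on the Y chromosome genes Uty, Kdm5d, Ddx3y and Eif2s3y, so its values are also given apart where a result rests on them.

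Reads on all 10 genes were counted in every library, and all 10 genes passed the filter on low counts. The lowest single count was 10, for Cd3d in mandible S16, and the highest was 1301, for Nkg7 in femur S13. The summed level of the 10 genes was 162 CPM in femur S13, 50.5 CPM in S15 and 109 CPM in S18. In the mandible it was 68.4 CPM in S16, 90.4 CPM in S19 and 135 CPM in S23. The groups overlapped, with 107 ± 55.9 CPM in femur and 98.0 ± 34.1 CPM in mandible libraries (SD, n = 3 each). Set against the summed monocyte markers, the 10 genes made 6.33 to 19.8 CPM per 1000 CPM. The highest share was in S23 and the next, 16.1, in S13, on a sum that was mostly Lyz2. In bulk RNA, fewer cells of a type and less RNA per cell cannot be told apart.

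**Figure D1:**
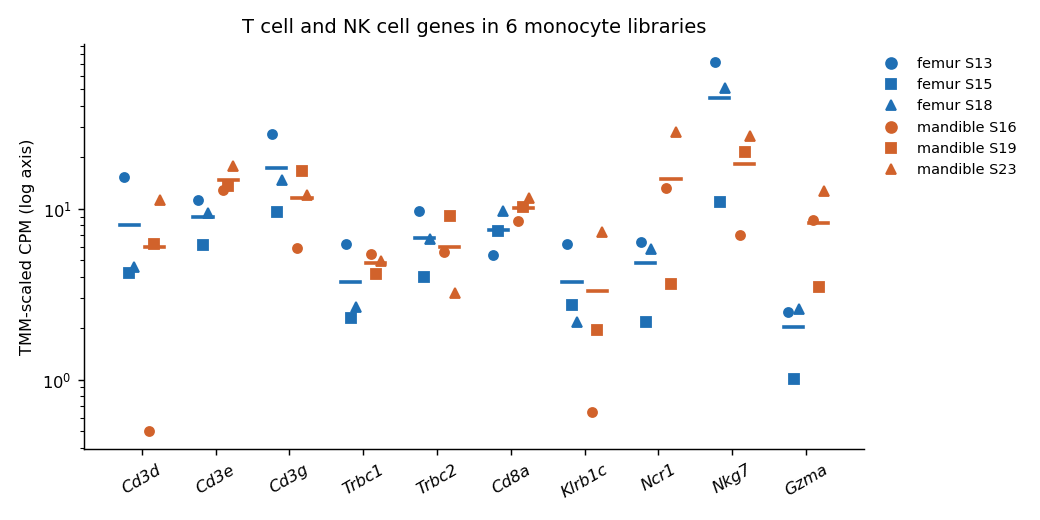
TMM-scaled CPM (log axis) of the 10 T cell and NK cell genes, with 1 point per library and a bar at the mean of each group of 3 libraries. The libraries of both groups are separate for Cd3e and Gzma and interleave for the other 8 genes, and Cd3d and Klrb1c drop to 0.5004 and 0.650 CPM in mandible S16.

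None of the 10 genes was called between mandible and femur by the quasi-likelihood test of edgeR, with p-values adjusted by Benjamini-Hochberg over all 18114 tested genes and a call made where the adjusted p was under 0.05 and the groups differed by a fold of 2 or more. Of all tested genes, 5.18% were called, 3.88% as higher in the mandible and 1.3% as lower. An unadjusted p under 0.05 was reached by 2 of the 10, Ncr1 and Gzma, both with higher means in the mandible, against 16.4% of all tested genes. The libraries of both groups did not overlap for 2 of the 10, Cd3e and Gzma, against 24.2% of all tested genes. The log2 fold changes (mandible over femur) had a median of 0.10, beside -0.038 for all tested genes, and 5 of the 10 were above 0. With 3 libraries against 3, the smallest p that the exact permutation test can give is 0.1. In simulated data the edgeR test called 80 of 177 tested genes given a 4-fold change. A gene without a call can thus still differ between the groups. The labels do not say whether the libraries came from separate animals, so the spread between the libraries may in part be technical.

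**Figure D2:**
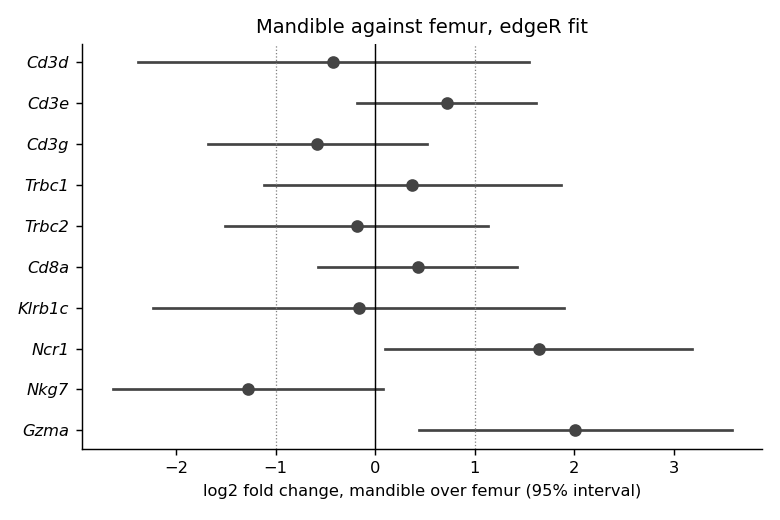
Log2 fold change of mandibular- over femur-derived monocytes for the 10 genes from the edgeR fit, with points at the estimate, lines for the 95% interval and dotted lines at a fold change of 2. The intervals of Ncr1 and Gzma lie above 0, those of the other 8 genes include 0, and none of the 10 genes passed the adjusted threshold.

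The CD3 chains Cd3d, Cd3e and Cd3g, the signaling subunits that every T cell receptor carries, lie side by side on chromosome 9. In GENCODE M21 (GRCm38), Cd3g spans chr9:44969572-44980431 on the minus strand, Cd3d chr9:44981786-44987339 on the plus strand and Cd3e chr9:44998740-45009627 on the minus strand. Only 1354 bases separate Cd3g from Cd3d. Their summed level was 54.0 CPM in S13, 19.9 CPM in S15 and 28.8 CPM in S18 of the femur, and 19.4 CPM in S16, 36.5 CPM in S19 and 41.1 CPM in S23 of the mandible, so that both groups ran over nearly the same range.

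Cd3d and Cd3g differed from Cd3e in their order of libraries. Cd3d was measured at 15.3 CPM in S13, 4.19 CPM in S15 and 4.55 CPM in S18, and at 0.5004 CPM in S16, 6.22 CPM in S19 and 11.3 CPM in S23. The 10 counts of Cd3d in S16 gave an exact Poisson 95% interval of 0.240 to 0.920 CPM, which covers counting error only and lies below the level in all the other libraries. The highest library stood 30.6-fold above the lowest, the widest range of the 10 genes. Its log2 fold change was -0.42 ± 0.89 (SE) with an adjusted p of 0.905 (edgeR), and the exact permutation p was 0.8. This sign rested on single libraries, since the value was 0.46 without S13, 0.12 without S16 and -1.30 without S23.

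Cd3e was at 11.3 CPM in S13, 6.13 CPM in S15 and 9.50 CPM in S18, and at 12.96 CPM in S16, 13.7 CPM in S19 and 17.7 CPM in S23. All 3 mandible libraries lay above all 3 femur libraries. The log2 fold change was 0.72 ± 0.41 (SE), with an adjusted p of 0.452 (edgeR) and an exact permutation p of 0.1. It stayed above 0 in each fit that left out 1 library, from 0.46 without S15 to 0.92 without S13.

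Cd3g was at 27.4 CPM in S13, 9.63 CPM in S15 and 14.7 CPM in S18, and at 5.90 CPM in S16, 16.6 CPM in S19 and 12.1 CPM in S23. The groups overlapped, with a log2 fold change of -0.58 ± 0.50 (SE), an adjusted p of 0.676 (edgeR) and an exact permutation p of 0.5. Without S13, its highest library, the log2 fold change was -0.075. Counted in reads, Cd3e gave 0.740 to 2.20 reads per Cd3d read in 5 libraries and 25.9 in S16. Cd3g likewise gave 1.07 to 3.23 reads per Cd3d read in 5 libraries and 11.8 in S16, so S16 was the library in which Cd3d dropped against both neighbors.

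The annotation bears on these counts. The gene length in the count table equals the M21 exon length of each of the 10 genes, and for Cd3d, Cd3e, Cd3g, Cd8a and Nkg7 it includes retained-intron transcripts. Of the 4080 exon bases of Cd3e only 35.8% belong to protein-coding transcripts, and of the 3269 of Cd3g 31.3%, against 94.2% of the 1815 of Cd3d. Reads that fall in these retained introns of Cd3e and Cd3g count on the gene. Cd3e also overlaps Gm48719 on the plus strand and Gm48720 on the minus strand, and the use of the strand in counting was not given in the sources used here. The part of these features in the differing patterns of the chains was not tested.

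Trbc1 and Trbc2 code for the alternative constant regions of the T cell receptor beta chain, and a T cell uses one or the other. Trbc1 spans chr6:41538218-41539881 and Trbc2 chr6:41546730-41548352, both on the plus strand, with 6848 bases between them. Their coding parts are 518 bases each and differ at 23 of them (95.6% identical), of which 1 falls in the 375 bases of coding exon 1. The remaining 143 bases, from coding exons 2 to 4, hold the other 22 and are shown from the M21 transcripts, 5′ to 3′, because reads on them can be told apart. Capitals mark the bases that differ.
Trbc1: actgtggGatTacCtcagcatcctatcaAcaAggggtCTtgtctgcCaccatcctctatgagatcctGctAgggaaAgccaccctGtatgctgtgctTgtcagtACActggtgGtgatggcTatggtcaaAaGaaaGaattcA
Trbc2: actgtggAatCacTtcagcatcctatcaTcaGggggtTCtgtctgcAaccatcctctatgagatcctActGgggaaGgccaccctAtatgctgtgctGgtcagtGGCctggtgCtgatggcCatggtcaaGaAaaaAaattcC
Of the 469 windows of 50 bases, the length of the reads, in the coding part, 60.3% also occur in the other gene. Over the whole transcript it is 41.1% of the windows of Trbc1 and 44.0% of those of Trbc2. The share of reads given to each gene is thus uncertain, although such windows do not take the second read of a pair into account.

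Trbc1 was at 6.24 CPM in S13, 2.30 CPM in S15 and 2.65 CPM in S18, and at 5.45 CPM in S16, 4.13 CPM in S19 and 4.92 CPM in S23. Femur S13 lay above all the mandible libraries, and the other femur libraries lay below them. Its log2 fold change was 0.37 ± 0.68 (SE), with an adjusted p of 0.879 (edgeR) and an exact permutation p of 0.4. It was 0.97 without S13, 0.18 without S18, 0.078 without S15 and 1.04 after a correction for gene length. Trbc2 was at 9.72 CPM in S13, 3.96 CPM in S15 and 6.63 CPM in S18, and at 5.60 CPM in S16, 9.02 CPM in S19 and 3.20 CPM in S23. The groups overlapped again, with a log2 fold change of -0.19 ± 0.60 (SE), an adjusted p of 0.938 (edgeR) and an exact permutation p of 0.7. It was 0.17 without S13, 0.060 without S23 and 0.46 after the length correction. The summed pair does not depend on how counted reads were shared between the copies, but it would miss reads left uncounted because they match both. It was at 6.27 to 15.96 CPM in femur and 8.12 to 13.2 CPM in mandible libraries. Its log2 fold change was 0.039. Trbc2 gave 1.03 to 2.5 reads per Trbc1 read in 5 libraries and 0.651 in S23.

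Cd8a, the alpha chain of the CD8 coreceptor (chr6:71373427-71379173, plus strand), varied least. It was at 5.36 CPM in S13, 7.37 CPM in S15 and 9.72 CPM in S18, and at 8.51 CPM in S16, 10.3 CPM in S19 and 11.5 CPM in S23. The coefficient of variation over the 6 libraries was 25.05%, the lowest of the 10 genes. Femur S13, highest for Cd3d, Cd3g, Trbc1, Trbc2 and Nkg7, was the lowest library for Cd8a. The log2 fold change was 0.43 ± 0.45 (SE), with an adjusted p of 0.750 (edgeR) and an exact permutation p of 0.2. Cd8b1, the partner chain of the heterodimer, was at 3.36 to 9.45 CPM in femur and 6.50 to 17.6 CPM in mandible libraries. Cd8a gave 0.567 to 2.39 reads per Cd8b1 read, so the ratio of the partners was not fixed. Plasmacytoid dendritic cells can also carry Cd8a, and the summed level of their 9 markers was 50.9 to 61.7 CPM in femur and 104 to 133 CPM in mandible libraries, with 2 of 8 tested markers called higher, Tcf4 and Cox6a2, named after their values were seen. Tcf4 made up the greater part of the sum, at 28.9 to 43.5 CPM in femur and 70.7 to 91.1 CPM in mandible libraries. The other 7 markers summed to 18.1 to 22.4 CPM and 28.2 to 29.3 CPM, and of these Bst2 had a log2 fold change of 0.086 and Siglech was high in S16 alone (8.51 CPM, against 0.875 to 3.15 CPM in the others). The part of these cells in the Cd8a level was not tested.

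The NK receptors were Klrb1c, which codes for the antigen that marks NK cells in C57BL/6 mice, and Ncr1, which codes for the activating receptor NKp46. Klrb1c spans chr6:128778485-128789215 on the minus strand and overlaps Gm44511 on the same strand. It was at 6.24 CPM in S13, 2.72 CPM in S15 and 2.16 CPM in S18, and at 0.650 CPM in S16, 1.95 CPM in S19 and 7.32 CPM in S23. The lowest and the highest library were both mandibular, 11.3-fold apart. The log2 fold change was -0.17 ± 0.94 (SE), with an adjusted p of 0.968 (edgeR) and an exact permutation p of 0.6. It was -1.56 without S23 and turned above 0 without S13 (0.44), S16 (0.32) or S19 (0.063).

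Ncr1 (chr7:4337724-4345164, plus strand) was at 6.41 CPM in S13, 2.17 CPM in S15 and 5.79 CPM in S18, and at 13.3 CPM in S16, 3.61 CPM in S19 and 27.97 CPM in S23. Mandible S16 and S23 stood above all the femur libraries, and mandible S19 stood among them. The means were 4.79 ± 2.29 CPM in femur and 14.9 ± 12.3 CPM in mandible libraries (SD, n = 3 each). The log2 fold change of 1.64 ± 0.70 (SE) had an adjusted p of 0.263 (edgeR), and the exact permutation p was 0.3. Without S23 it was 0.76. Ncr1 gave 0.797 to 3.82 reads per Klrb1c read in 5 libraries and 20.4 in S16, where Klrb1c had 13 counts and Ncr1 265.

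Gzma codes for granzyme A, a serine protease of cytotoxic granules (chr13:113093825-113100981, minus strand). It was at 2.49 CPM in S13, 1.01 CPM in S15 and 2.61 CPM in S18, and at 8.56 CPM in S16, 3.47 CPM in S19 and 12.6 CPM in S23. All mandible libraries lay above all femur libraries. The means were 2.04 ± 0.887 CPM and 8.22 ± 4.60 CPM (SD, n = 3 each). The log2 fold change of 2.01 ± 0.71 (SE) was the largest of the 10 genes and had an adjusted p of 0.162 (edgeR), with an exact permutation p of 0.1. It ran from 1.51 without S23 to 2.33 without S19, and Gzma was called in none of the alternatives (adjusted p of 0.0555 to 0.434).

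Nkg7, a membrane protein of cytotoxic granules (chr7:43437073-43438249, plus strand), had the highest median level of the 10 genes per 1000 bases of exon. It was at 71.9 CPM in S13, 11.01 CPM in S15 and 50.8 CPM in S18, and at 7.01 CPM in S16, 21.5 CPM in S19 and 26.7 CPM in S23. Femur S13 and S18 stood above the mandible libraries, while femur S15 stood above mandible S16 alone. The log2 fold change of -1.28 ± 0.62 (SE) had an adjusted p of 0.344 (edgeR), and the exact permutation p was 0.4. Without femur S15, the library with counts on most genes, Nkg7 was called lower in the mandible, with a log2 fold change of -1.78 and an adjusted p of 0.0383 (edgeR). It was then the 1 gene called of the 10, in a fit that called 8.35% of all 18742 tested genes. Without femur S13 its log2 fold change was -0.75. The adjusted p of Nkg7 ran from 0.00939 to 0.896 over the alternatives. The call also came with no filter on low counts, in a fit that called 3.77% of all tested genes.

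Nkg7 and Gzma, both granule genes, thus differed in sign. Nkg7 gave 28.9 reads per Gzma read in S13, 10.9 in S15 and 19.5 in S18, and 0.819 in S16, 6.21 in S19 and 2.11 in S23. All femur libraries had a higher ratio than all mandible libraries, but Gzma alone already separated the groups. The pair joins the lowest and the highest log2 fold change of the 10 genes, and neither gene was called with all 6 libraries. The ratio is thus not separate support for a difference. The summed level of 10 neutrophil markers was highest in the libraries with the most Nkg7, at 33191 CPM in S13 and 23655 CPM in S18, and was 3743 CPM in S15 and 4047 to 10515 CPM in the mandible. Of these markers 1 of 10 tested was called lower, S100a8, and none was at 0. The 8 markers of conventional dendritic cells summed to 508 CPM in S13, 352 CPM in S18, 151 CPM in S15 and 214 to 224 CPM in the mandible, with none of 7 tested called. Of this sum Cd24a, which other blood cells also use, was 466 CPM in S13, 312 CPM in S18 and 110 CPM in S15. The other 7 markers summed to 40.2 to 41.9 CPM in femur and 39.4 to 59.3 CPM in mandible libraries and were not highest in the libraries with the most Nkg7. S13 and S18 also had the highest sums of other lists. The 6 plasma cell markers summed to 718 CPM in S13 and 847 CPM in S18, against 363 to 527 CPM in the others. The sums of basophil and mast cell, erythroid, and megakaryocyte and platelet markers were highest in S13 and S18 too. The part of any of these cells in the level of Nkg7 was not tested.

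Promoters were looked at because Ncr1 and Gzma moved together over the libraries, a pair picked after its correlation was seen. The 250 bases before the start of the gene were available from RefSeq (GRCm38.p6) for 8 of the 10 genes, all except Trbc1 and Trbc2. The core letters of the RUNX motif, TGTGGT or ACCACA on the opposite strand, occurred in Klrb1c, Ncr1, Nkg7 and Gzma, and in 14.0% of 32851 promoters of this length. They were not among the letters of the windows of Cd3d, Cd3e, Cd3g and Cd8a. The T-box motif, TCACACC or GGTGTGA, occurred in Nkg7 and in 3.33% of the promoters. A match of one motif can overlap one of the other in the letters GGT. The windows shown, without the T-box letters, are those of Ncr1 (chr7:4337465-4337714, plus strand) and Gzma (chr13:113100982-113101231, minus strand), printed 5′ to 3′ on the strand of the gene with the RUNX letters in capitals. The matches begin 176 and 41 bases before the start of Ncr1 and 50 bases before that of Gzma. Such matches describe letters and not bound sites. Klrb1c, which has RUNX letters too, had a Pearson correlation (log2 CPM) of 0.16 with Ncr1 and -0.053 with Gzma. Nkg7, which also has them, had 0.025 with Ncr1 and -0.15 with Gzma. Cd3e, without these letters, had 0.91 with Gzma. A link between the letters and the levels was not tested.
Ncr1: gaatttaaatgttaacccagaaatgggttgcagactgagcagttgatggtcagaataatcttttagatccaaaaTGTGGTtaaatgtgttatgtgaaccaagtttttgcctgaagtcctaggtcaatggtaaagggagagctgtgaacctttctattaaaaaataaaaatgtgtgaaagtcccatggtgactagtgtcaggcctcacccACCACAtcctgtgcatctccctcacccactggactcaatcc
Gzma: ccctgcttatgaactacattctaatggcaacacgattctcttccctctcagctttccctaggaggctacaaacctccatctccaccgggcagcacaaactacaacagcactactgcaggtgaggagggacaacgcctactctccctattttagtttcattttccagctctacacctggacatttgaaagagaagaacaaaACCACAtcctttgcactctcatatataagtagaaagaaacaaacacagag

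Over the 6 libraries the 10 genes formed different patterns, with high correlations both across and within the lineages. On log2 CPM, Ncr1 and Gzma had a Pearson correlation of 0.93, Cd3e and Gzma 0.91, Cd3d and Klrb1c 0.94, and Cd3g and Nkg7 0.91. These were the highest of all pairs of the 10 genes and were picked as such. The next was Cd3d and Cd3g, chains of the same complex, at 0.86. Cd3d and Cd3e, also of that complex, had 0.10, and Klrb1c and Ncr1, both of NK cells, had 0.16. These are descriptions over n = 6 points that share the library, its depth and its group. The contrast was widest in S16, where Cd3d, Cd3g, Klrb1c and Nkg7 had their lowest level while Ncr1 and Gzma had their second highest. In the same library Trac, the constant region of the alpha chain, was at 0.350 CPM and Cd4 at 0.1001 CPM, beside 2.07 to 8.52 CPM and 1.24 to 2.21 CPM in the others. Other T cell genes were mixed there. Cd247 at 8.16 CPM, Lck at 22.9 CPM and Zap70 at 6.71 CPM were not low. Cd28 at 0.951 CPM and Icos at 0.1001 CPM, both named after their values were seen, had their lowest level in S16. Of the 94 other T and NK genes tested, S16 was the lowest library for 33 (35.1%), against 25.2% of all tested genes. Femur S15 was the lowest for 24 (25.5%), against 11.1% of all tested genes. Femur S13 and mandible S23 were each the highest library for 5 of the 10 genes, beside 17.6% and 23.1% of all tested genes. S15 and S16 were each the lowest for 4 of the 10, beside 11.1% and 25.2%.

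**Figure D3:**
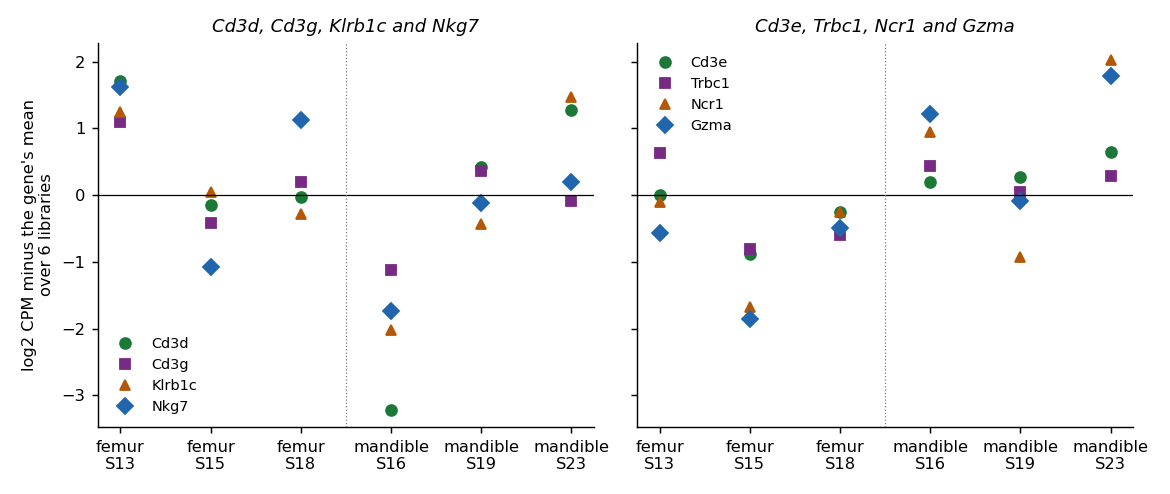
Log2 CPM of 8 of the 10 genes in each library, less the mean of the gene over the 6 libraries, split after the values were seen into those with a low point in S16 (left) and those without (right), while Cd8a and Trbc2 are not drawn. Cd3d lies furthest below its mean in mandible S16, and Ncr1 furthest above in mandible S23.

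The genes were compared with one another per 1000 bases of exon, since a longer gene gathers more reads. The median level was 26.3 CPM per 1000 bases for Nkg7, 8.84 for Trbc2, 6.04 for Trbc1 and 4.10 for Cd3g. It was 3.96 for Ncr1, 3.02 for Gzma, 2.98 for Cd3e, 2.97 for Cd3d, 2.51 for Cd8a and 0.825 for Klrb1c. No gene was above its next neighbor in this order in all 6 libraries. Nkg7 was above Trbc2 in 5 of 6, and Cd8a above Klrb1c in 5 of 6, while Cd3e was above Cd3d in 1. The range of Nkg7 was 7.66 to 78.6 and that of Klrb1c 0.220 to 2.47 CPM per 1000 bases, and the range of each gene overlapped that of its neighbor. Such ranges do not pair the genes within a library, and differences between neighboring genes were not tested. The lengths of Cd3e and Cd3g include the retained introns and lower their values on this scale.

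Beyond the 10 genes, 98 other T cell and NK cell genes were listed and 94 were tested, of which 5 were called (5.32%), a share near that of all tested genes. Lef1, Bcl11b, Rora and Gzmb rose in the mandible and Cd226 fell. The median log2 fold change of the 94 genes was 0.42, and 69 (73.4%) were above 0, against 47.8% of all tested genes. An unadjusted p under 0.05 was reached by 20 (21.3%), of which 15 were higher in the mandible, against 16.4% of all tested genes. Mandible S23 was the highest library for 50 of the 94 genes (53.2%), against 23.1% of all tested genes.

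Of 15 other genes of the receptor complex and its coreceptors none was called, and 13 had a log2 fold change above 0. Cd247, the zeta chain of the CD3 complex, was at 4.05 to 8.17 CPM in femur and 4.92 to 9.59 CPM in mandible libraries (log2 fold change 0.25), and Trac had 0.24. Trdc, the delta chain constant region, was at 0.398 to 2.26 CPM in femur and 0.751 to 4.18 CPM in mandible libraries. The most abundant of the list were Cd2, an adhesion receptor (log2 fold change 0.73), and Thy1, a surface glycoprotein of T cells that stromal cells also carry (1.03, adjusted p of 0.207, edgeR). Of 17 signaling genes none was called. Lck, the kinase that starts receptor signaling, was at 9.81 to 17.8 CPM in femur and 19.7 to 27.97 CPM in mandible libraries, with no overlap and a log2 fold change of 0.65. Zap70, the kinase that binds phosphorylated CD3 chains, had 1.00, and the more widely used Fyn and Lcp2 had 0.62 and 0.21.

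Of 14 transcription factors tested, 3 were called, all higher, in a fit that called 3.88% of all tested genes as higher, and each of these calls was lost without single libraries. Lef1, an effector of WNT signaling in T cell precursors, was at 8.95, 2.95 and 4.42 CPM in the femur (S13, S15, S18) and 18.3, 18.04 and 48.9 CPM in the mandible (S16, S19, S23), with a log2 fold change of 2.39 and an adjusted p of 0.0275 (edgeR). Bcl11b, a factor of T cell commitment, was at 15.6, 6.27 and 5.96 CPM in femur and 22.1, 36.4 and 78.3 CPM in mandible libraries (log2 fold change 2.30, adjusted p of 0.0283, edgeR). Rora, a nuclear receptor of innate lymphoid cells, was at 5.91, 7.88 and 7.69 CPM in femur and 20.5, 22.1 and 29.9 CPM in mandible libraries (1.75, adjusted p of 0.0163, edgeR). The groups were separate for all 3 of these factors. Other cells use these genes too, and the 10 markers of mesenchymal cells and osteoblasts, all 10 called higher, summed to 165 to 207 CPM in femur and 8221 to 12423 CPM in mandible libraries. The highest library was S23 both for this sum and for Lef1, Bcl11b and Rora, and the part of such cells in these calls was not tested. After a correction for gene length Lef1 (1.74), Bcl11b (1.71) and Rora (1.05) were no longer called. None of the 3 was called without S18, S19 or S23, nor Bcl11b without S15 or Rora without S13, with log2 fold changes of 1.52 to 2.58. Tcf7, a partner of Lef1, had a log2 fold change of 0.64, Zbtb7b 0.11 and Ets1 0.20. Tbx21, the T-box factor of type 1 lymphocytes, had 2.28 with an adjusted p of 0.0546 (edgeR) and was called after the length correction (0.0479), by DESeq2 (0.0037) and with TMM scaling that left out mitochondrial, hemoglobin and immunoglobulin genes (0.0490), in a range of 0.0037 to 0.221 over the alternatives. Eomes, its relative, had 1.42 with an adjusted p of 0.243 (edgeR).

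**Figure D4:**
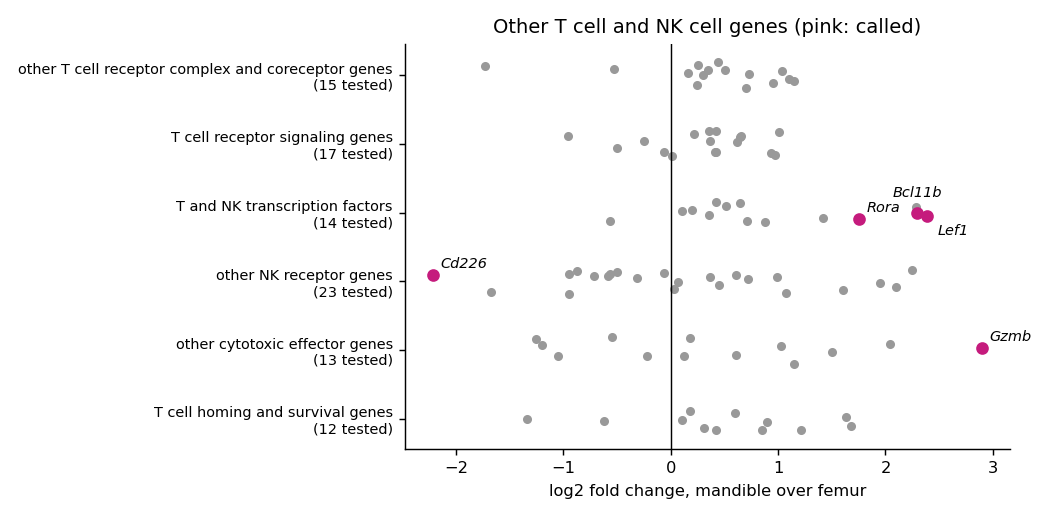
Log2 fold change of mandible over femur for the 94 tested T cell and NK cell genes beyond the 10, in 6 lists, with 1 point per gene, vertical jitter without meaning, and the 5 called genes in pink. Lef1, Bcl11b, Rora and Gzmb lie on the right, and Cd226 on the left.

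Among 23 other NK receptor genes tested, Cd226 was the 1 called. It codes for an adhesion receptor of NK cells, T cells and platelets and was at 38.4, 39.9 and 44.7 CPM in the femur (S13, S15, S18) and 5.20, 4.65 and 16.6 CPM in the mandible (S16, S19, S23), with a log2 fold change of -2.22 and an adjusted p of 0.0201 (edgeR). The 6 markers of megakaryocytes and platelets, 5 of them called lower, summed to 549 to 877 CPM in femur and 72.7 to 105 CPM in mandible libraries, and of these Gp9 was at 0 in S16. The part of these cells in the level of Cd226 was not tested. Cd226 was no longer called without S13, S16, S18 or S19, with log2 fold changes of -2.26 to -1.95, nor with no normalization factors (-2.07, adjusted p of 0.0510, edgeR, in a range of 7.46e-07 to 0.0969 over the alternatives). Klrd1, the partner of the NKG2 receptors, was at 1.47 to 4.198 CPM in femur and 2.15 to 8.98 CPM in mandible libraries (log2 fold change 0.72). Klrk1, an activating receptor, had 0.062, and Il2rb, a chain of the receptor for interleukin 15, had 0.37. The most abundant of the list, Tyrobp and Fcgr3, are used by monocytes as well and had log2 fold changes of -0.88 and -0.56.

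Among 13 other effector genes tested, Gzmb was called. This gene of granzyme B was at 1.82, 0.737 and 1.06 CPM in the femur (S13, S15, S18) and 5.05, 6.22 and 15.8 CPM in the mandible (S16, S19, S23), with a log2 fold change of 2.90 and an adjusted p of 0.0442 (edgeR). Plasmacytoid dendritic cells can also make Gzmb, and their summed markers, given above with Cd8a, were higher in the mandible as well, mainly through Tcf4. The part of these cells in the Gzmb level was not tested. Gzmb was no longer called when S13, S15, S18, S19 or S23 was left out, with log2 fold changes of 2.17 to 3.32, nor by limma-voom (2.79, adjusted p of 0.120, in a range of 0.00159 to 0.267 over the alternatives). Prf1, the pore protein perforin, was at 3.31 to 4.69 CPM in femur and 5.30 to 18.2 CPM in mandible libraries (log2 fold change 1.504, adjusted p of 0.205, edgeR). Ccl5, a chemokine of activated lymphocytes, had 1.03, and Srgn, a granule proteoglycan that myeloid cells also make, had -1.26 with an adjusted p of 0.131 (edgeR). Of 12 homing and survival genes none was called, and Satb1, a chromatin organizer of T cells, had a log2 fold change of 0.89.

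Beside the 10 T and NK genes, other lymphoid and granulocyte markers were read as sums over genes of differing length. The 10 B cell markers summed to 25.4 to 34.8 CPM in femur and 26.8 to 49.0 CPM in mandible libraries, with 1 of 9 tested called higher. The 6 basophil and mast cell markers summed to 66.9 to 231 CPM and 62.5 to 113 CPM with none of 6 called.

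**Figure D5:**
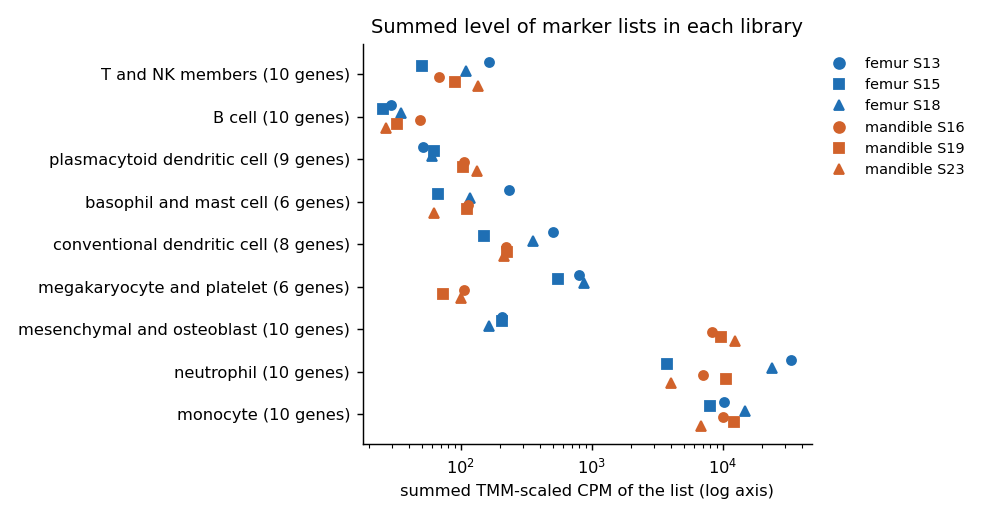
Summed TMM-scaled CPM (log axis) of the 10 T cell and NK cell genes and of marker lists of other cells, with 1 point per library. The T and NK sum overlaps between femur and mandible at 50.5 to 162 CPM, while the mesenchymal and megakaryocyte sums separate the groups.

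Genes outside the T and NK lists whose log2 CPM was most like the summed CD3 chains were Morn2 (Pearson r = 0.99), Suox (0.99) and Gm44187 (0.99), and those most like the sum of Klrb1c and Ncr1 were Ttc39b (0.99), Popdc2 (0.99) and Gm4895 (0.97). These were picked as the highest of all tested genes over n = 6 libraries, and 12 and 8 genes reached a correlation over 0.95.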

How the data were processed

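The authors trimmed the read pairs, aligned them to GRCm38 with HISAT2 2.1.0 and deposited raw counts of reads per gene, made with featureCounts, for each library. The handling of strand and of reads with several positions was not given in the sources used here. Only 3016 of 52029 genes found in both, and 1 of the 10 genes, had a table interval within the GENCODE M21 gene (GRCm38). The intervals deposited with the counts thus mostly departed from M21, for a reason that was not tested. Positions and overlapping genes given here came from M21 through the Ensembl identifier and may differ from those used in counting. For the test, edgeR 4.0.16 in R 4.3.3 was run with TMM scaling, a quasi-likelihood fit (prior count 0.125), femur as baseline and no covariates, on genes kept by filterByExpr (minimum count 10, minimum total 15). Calls needed an adjusted p (Benjamini-Hochberg) under 0.05 and a fold of 2 or more. For each of the 10 genes, log2 CPM was also compared by exact permutation, two-sided. The test was tried on simulated data, where it called 80 of 177 tested genes given a 4-fold change. It also called 7 of 16448 tested genes without a change. Many genes with a change of that size were thus missed.

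The 10 genes and the other lists were chosen with earlier results of these data known. Named genes were all 10, the 2 most abundant tested genes and up to 3 called genes of each other list, a set of T and NK genes fixed by name, and the 3 genes nearest in pattern to each of the CD3 and NK receptor sums. Of the genes that meet this rule, 1 is not reported here. Femur and mandible ranges of other listed genes are over 3 libraries each. Alternatives included DESeq2 1.42.0, limma-voom (limma 3.58.1), other scalings and filters, a loess correction on gene length, and each library left out in turn. Totals of 15718782 to 25371474 counts made 3 counts equal to 0.133 to 0.172 CPM.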

Additional observations from a re-analysis of the deposited data

How the results depend on the processing

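Over 11 alternatives with all 6 libraries and 6 fits that each left out 1 library, Cd3e, Trbc1, Cd8a, Ncr1 and Gzma kept a log2 fold change above 0 and Cd3g and Nkg7 one below 0. Cd3d ran from -1.30 to 0.46 when 1 library was left out, with the other sign without S13 (0.46) or S16 (0.12). Trbc2 was 0.46 after the length correction and ran from -0.67 to 0.17 when 1 library was left out, above 0 without S13 (0.17) or S23 (0.060). Klrb1c was 0.029 with no normalization factors and ran from -1.56 to 0.44, above 0 without S13 (0.44), S16 (0.32) or S19 (0.063). The causes were not tested. Of the 10 genes, 1 (Nkg7) was called with no filter on low counts, in a fit that called 3.77% of all tested genes. When a library was left out 0 to 1 was called, the 1 being Nkg7 without S15. Of the 94 other T and NK genes, 8 were called by DESeq2 and 3 with the length correction, beside 8.54% and 4.53% of all tested genes. With 1 library left out, 95 to 97 of the other genes were tested. Of these 0 (without S18 or S19) to 5 were called, with 2 without S13 and 1 without S23. The same fits called 2.17% (without S19) to 8.35% (without S15) of all tested genes. Of the 5 called without S15, 3 were also called with all libraries. Of all genes, 938 were called, 1590 with no filter, 1547 by DESeq2, and from 434 (without S19) to 1565 (without S15), with 509 without S13, 552 without S18 and 551 without S23. The sum of Trbc1 and Trbc2 (0.039) was an alternative chosen after seeing the data. No paired analysis was possible because the replicate numbers of the groups are not shared. Depth limits Cd3d and Klrb1c most, at 10 and 13 counts in S16.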
